A study of Mus musculus with 15 samples.

Results

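The zinc finger genes numbered Zfp600 to Zfp999 were examined in RNA from 15 mouse brain tumours. The members were all genes of the deposited tables whose symbols run from Zfp600 to Zfp999, and there were 174 of them among 54232 gene identifiers (171 protein-coding genes and 3 pseudogenes). The rule reads only the symbol. The tumours arose in the frontal cortex of C57BL/6 mice that express Tva, a receptor for avian retroviruses, under the Nestin promoter. Chicken DF-1 cells that shed RCAS viruses delivered Cre recombinase to every mouse, together with PDGFA, a glioma growth factor, and histone H3.3 joined to GFP, and tumours were taken at a functional end point. All groups carried floxed p53 and received PDGFA, so no group represents untreated brain. The genotype was Np53fl;ATRXfl/fl, in which Cre can delete Atrx, or Np53fl, in which Atrx is intact. The delivered H3.3 was either normal (H3.3WT) or carried the G34R mutation (H3.3G34R) known from human hemispheric glioma. There were 4 Atrx-floxed H3.3G34R tumours, 4 Atrx-floxed H3.3WT tumours, 3 Atrx-intact H3.3G34R tumours and 4 Atrx-intact H3.3WT tumours. The sources used here give no age. The viruses reach only cells that express Nestin, so a tumour also holds host cells that kept Atrx and p53.

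Most genes of this kind encode proteins with a row of C2H2 zinc fingers, each of which can contact a few bases of DNA. Many also carry a KRAB domain, which recruits the co-repressor TRIM28 (KAP1) and through it the H3K9 methyltransferase SETDB1, and the best studied of them silence retroelements. The genes often lie in tandem arrays that arose by duplication, and their last exons, which encode the fingers, are known sites of H3K9 trimethylation, H3.3 and ATRX binding in other cells. The data here are RNA levels only, and no binding or chromatin mark was measured.

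By the GENCODE vM21 models on GRCm38 (mm10), the 171 coding members had a median of 11 finger motifs and at most 33. In 8 of them no finger of the searched pattern was found, and 85 held letters of the KRAB box. The KRAB letters were likewise searched as a fixed pattern. A member counted as without them may therefore still carry a KRAB box whose letters differ from that pattern. In 139 of the 163 with fingers, at least 80% of the fingers lay in the last coding exon. The members sat on 20 chromosomes, with 36 on chromosome 7, 22 on chromosome 17, 20 on chromosome 4, 16 on chromosome 8, 15 on chromosome 2 and 11 on chromosome 13. Runs of at least 5 members, with each start within 500 kb of the next, numbered 8. The longest held 17 members on chromosome 4 from Zfp990 to Zfp933 (145510759 to 147848366), and the next held 14 members on chromosome 17 from Zfp677 to Zfp945 (21383748 to 22867134).

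The promoters below belong to Zfp977, Zfp976 and Zfp975, of which Zfp976 is the member that passed the authors' threshold and the others are the members beside it on chromosome 7, and to Zfp618, which had the smallest p of any member for Atrx status over both histones. Each is the RefSeq window (GRCm38.p6) from 250 bases before to 50 bases after the transcription start, written 5′ to 3′ on the gene's strand, with CG dinucleotides in capitals, the pairs at which DNA methylation occurs. Their positions are chr7:42592496-42592795, minus strand for Zfp977, chr7:42642555-42642854, minus strand for Zfp976, chr7:42692669-42692968, minus strand for Zfp975 and chr4:62965317-62965616, plus strand for Zfp618.
Zfp977: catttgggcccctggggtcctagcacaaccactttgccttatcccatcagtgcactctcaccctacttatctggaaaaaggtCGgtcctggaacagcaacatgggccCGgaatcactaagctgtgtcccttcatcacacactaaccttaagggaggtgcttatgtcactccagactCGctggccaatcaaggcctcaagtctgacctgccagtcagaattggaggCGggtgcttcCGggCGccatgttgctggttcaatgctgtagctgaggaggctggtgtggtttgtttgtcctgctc
Zfp976: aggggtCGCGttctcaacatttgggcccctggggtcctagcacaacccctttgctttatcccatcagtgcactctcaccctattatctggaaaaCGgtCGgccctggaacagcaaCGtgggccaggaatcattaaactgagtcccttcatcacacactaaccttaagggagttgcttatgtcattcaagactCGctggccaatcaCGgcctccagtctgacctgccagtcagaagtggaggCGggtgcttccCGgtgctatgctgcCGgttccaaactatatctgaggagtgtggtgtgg
Zfp975: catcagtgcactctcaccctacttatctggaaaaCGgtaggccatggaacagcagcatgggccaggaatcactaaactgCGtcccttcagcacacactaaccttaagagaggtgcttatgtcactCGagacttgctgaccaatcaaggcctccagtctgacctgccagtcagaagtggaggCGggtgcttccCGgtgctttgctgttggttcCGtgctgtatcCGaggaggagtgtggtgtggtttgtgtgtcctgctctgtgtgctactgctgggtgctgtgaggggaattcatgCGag
Zfp618: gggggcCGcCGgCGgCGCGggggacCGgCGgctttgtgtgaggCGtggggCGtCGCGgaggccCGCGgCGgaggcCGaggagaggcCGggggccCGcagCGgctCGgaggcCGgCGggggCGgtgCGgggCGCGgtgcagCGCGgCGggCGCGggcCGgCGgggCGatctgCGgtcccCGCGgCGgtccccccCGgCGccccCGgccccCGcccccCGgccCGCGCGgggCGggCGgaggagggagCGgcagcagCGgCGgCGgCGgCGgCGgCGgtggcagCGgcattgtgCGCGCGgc

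Over aligned bases, the Zfp976 window was 90.5% identical to that of Zfp977 and 90.8% identical to that of Zfp975, while Zfp975 and Zfp977 were 89.5% identical. These 3 windows held 6 (Zfp977), 10 (Zfp976) and 8 (Zfp975) CG dinucleotides, against 59 in the Zfp618 window. Windows were found for 147 members (177 windows), with a median of 11 CG dinucleotides, against 7 over all 32851 mouse windows in the same table and 16 for the genes Zfp1 to Zfp599.

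Atrx itself was lower in the tumours labelled Atrx-floxed. Its level was 2376 ± 619 normalised reads (SD, n = 8) in floxed and 6687 ± 1395 (SD, n = 7) in intact tumours. The ranges of 1346 to 3124 and 5143 to 8540 did not overlap. An exact two-sided permutation test of the log2 level gave p = 0.000155, the smallest that 6435 splits allow. This test treats each library as a separate unit, though some libraries of a group share the first code of their titles. It was not repeated with those libraries summed. A normalised read is a read count divided by a size factor that evens out sequencing depth. Libraries held 22807315 to 35679129 reads in genes. Summed markers of oligodendrocyte progenitors (Pdgfra, Olig1, Olig2, Cspg4, Sox10) lay between 140376 and 352234 normalised reads in 14 tumours and at 22044 in Atrx-intact H3.3WT replicate 3. That tumour had 153507 normalised reads of 8 mature neuron markers, where the other 14 had 513 to 10243, the highest of those being Atrx-floxed H3.3G34R replicate 3. These 2 tumours also had the most of 6 mature oligodendrocyte markers, 100434 and 93704 normalised reads in the same order (others 10472 to 38396). Their 6 astrocyte markers were the highest too, at 236570 and 59474 (others 16899 to 38959). The 2 tumours are left out together in a stated alternative. Atrx-floxed H3.3WT replicate 1 stood apart in other markers, with 66536 normalised reads of 5 endothelial genes (others 6255 to 16547) and 99408 of 5 mural and fibroblast genes (others 3982 to 25751). Leaving it out put 63 of the tested members higher and 76 lower with Atrx floxed, as against 61 and 78. In bulk RNA, fewer cells of a type and less RNA per cell cannot be told apart. Xist, which marks female cells, ranged from 1.06 to 42096 normalised reads and its median was 17.3 in the Atrx-floxed H3.3G34R group but 23645 in the Atrx-intact H3.3WT group, and the labels give no sex.

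Most members were transcribed in these tumours at a modest level. Of the 174, 139 (79.9%) had a mean of at least 10 normalised reads and 137 of these had reads in every tumour, against 68.1% of all protein-coding genes and 94.5% of Zfp1 to Zfp599 that reached the same mean. A further 20 members had some reads but a lower mean, and 15 had no read in any tumour. The reads of all members made up 0.264% to 0.444% of the reads in genes, and this share ran from 0.316% to 0.412% in Atrx-floxed H3.3G34R, 0.339% to 0.404% in Atrx-floxed H3.3WT, 0.334% to 0.420% in Atrx-intact H3.3G34R and 0.264% to 0.444% in Atrx-intact H3.3WT tumours. The ranges of the 4 groups overlapped. Both extremes fell in the Atrx-intact H3.3WT group, with the lowest in the neuron-rich replicate 3.

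Per kilobase of exon, which allows genes to be compared, the median tested member had 94.2 normalised reads, against 118 for Zfp1 to Zfp599 and 179 for tested protein-coding genes. The highest 3 were Zfp740 (1007 per kilobase), Zfp664 (832) and Zfp703 (822), the last being a transcriptional co-repressor that is amplified in some breast cancers. Members with KRAB letters had a median of 70.8 per kilobase and coding members without them 155. Members with 10 or more fingers had 73.9 and those with 1 to 9 fingers 147. The members with KRAB letters or many fingers were thus at lower levels, as a description of these genes without a test. The median SD of the log2 level of tested members over 15 tumours was 0.442. This lay below the 0.594 of all tested genes and above the 0.390 of Zfp1 to Zfp599. The spread of tested protein-coding genes alone was not computed.

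Of the 15 members without a read, 10 lie on chromosomes 2 and 4. The 15 were Zfp968, Zfp965, Zfp969, Zfp966 and Zfp967 on chromosome 2, Zfp986, Zfp987, Zfp600, Zfp981 and Zfp989 on chromosome 4, Zfp735 and Zfp616 on chromosome 11, Zfp935 and the pseudogene Zfp640 on chromosome 13, and Zfp936 on chromosome 7. A count of 0 allows up to 3 reads a library, which is at most 3.62 normalised reads. Their transcripts shared a median of 70.0% of 100-base words with another gene's transcripts, and 9 of the 15 shared over 50%. For Zfp967 and Zfp969 it was 100% each. The 20 members with few reads shared a median of 38.3%, and 8 of them shared over 50%. None of the 139 tested members shared over 50%, and 71 shared nothing. Zfp735 and Zfp616 shared 0% and were at 0 all the same, so shared sequence did not go with every absence. How reads that match several genes were counted is not given in the sources used here, so a 0 for the members with shared sequence may not mean absent RNA, and this was not tested. Members that share sequence are uncertain in level. Of the 174 members, 48 overlap a different gene (21 on the same strand, 32 on the other), and the strand setting of the counting is likewise not given.

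**Figure D1:**
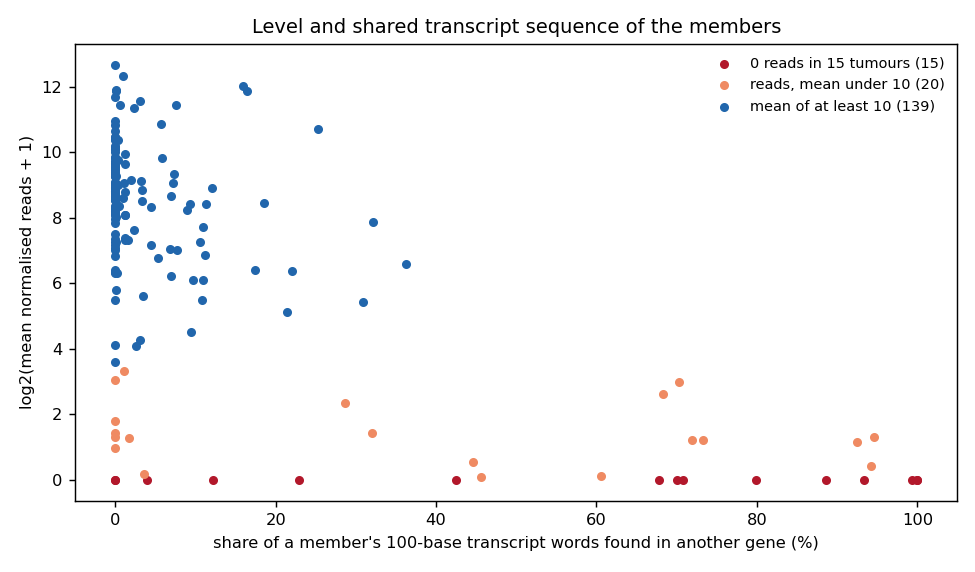
Level against shared transcript sequence for the 174 members; x is the percent of a member's 100-base transcript words that occur in another gene, y is log2 of the mean normalised reads plus 1 over 15 tumours, and colour gives the 15 members without reads, the 20 with a mean under 10 and the 139 tested. No tested member lies beyond 50% on the x axis.

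The members' levels were then compared between groups, with limma fitted over all genes on log2(normalised reads + 1), and the adjusted p (Benjamini-Hochberg, over all genes) had to be under 0.05 for a gene to be called. No member was called in any of 8 comparisons. For Atrx floxed against intact over both histones, 0 of 139 tested members were called by limma (0.0956% of 17776 genes were, 17 in number) and 9 had an unadjusted p under 0.05, which is 6.47% of the members against 4.87% of all genes. The smallest adjusted p of a member was 0.790. Of the members 61 were higher and 78 lower in floxed tumours, with a median log2 difference of -0.04 against -0.00309 for all genes. The median standard error was 0.238, and for 106 of the 139 members the 95% interval of the difference lay within a 2-fold change in either direction. The intervals of the rest reached beyond 2-fold.

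The histone made no called difference either. For H3.3G34R against H3.3WT over both Atrx states, limma called 0 of 139 members (0% of all genes) and 1 member had an unadjusted p under 0.05, where 2.15% of all genes did. Of the members 84 were higher and 55 lower in H3.3G34R tumours, at a median of 0.06 on the log2 scale against -0.00486 over all genes, and 114 had a 95% interval within 2-fold. The interaction, which asks whether the difference with Atrx depends on the histone, had 0 members called (0% of all genes) and 1 with an unadjusted p under 0.05 (2.05% of all genes). Its intervals were wider, and only 27 of 139 lay within 2-fold.

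The counts in the 5 pairs of groups were as low. With Atrx floxed, 0 of 140 tested members differed between the histones by limma (0% of genes called), and 3 had an unadjusted p under 0.05 (2.79% of genes). With Atrx intact there were 0 called (0% of genes) and 0 with an unadjusted p under 0.05 (1.47% of genes). Atrx floxed against intact gave 0 of 139 called with H3.3G34R (0.0229% of genes) and 0 with H3.3WT (0.0335%), with 3 members each at an unadjusted p under 0.05 (3.39% and 3.76% of genes). Both changes against neither gave 0 called (0.0227% of genes) and 3 with an unadjusted p under 0.05 (4.37% of genes). DESeq2, the edgeR quasi-likelihood test and limma-voom on the recovered reads also called 0 members in all 8 comparisons. For Atrx over both histones DESeq2 called 0.506% of genes, edgeR 0.0731% and limma-voom 0.225%. There the members with an unadjusted p under 0.05 numbered 11 of 138 by DESeq2 (7.97%, against 8.11% of genes), 10 of 139 by edgeR (7.19%, against 6.11%) and 16 of 139 by limma-voom (11.5%, against 9.66%). By limma, the shares at an unadjusted p under 0.05 were near or below those of all genes except in the first comparison, where 4 of the 9 members were higher and 5 lower.

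**Figure D2:**
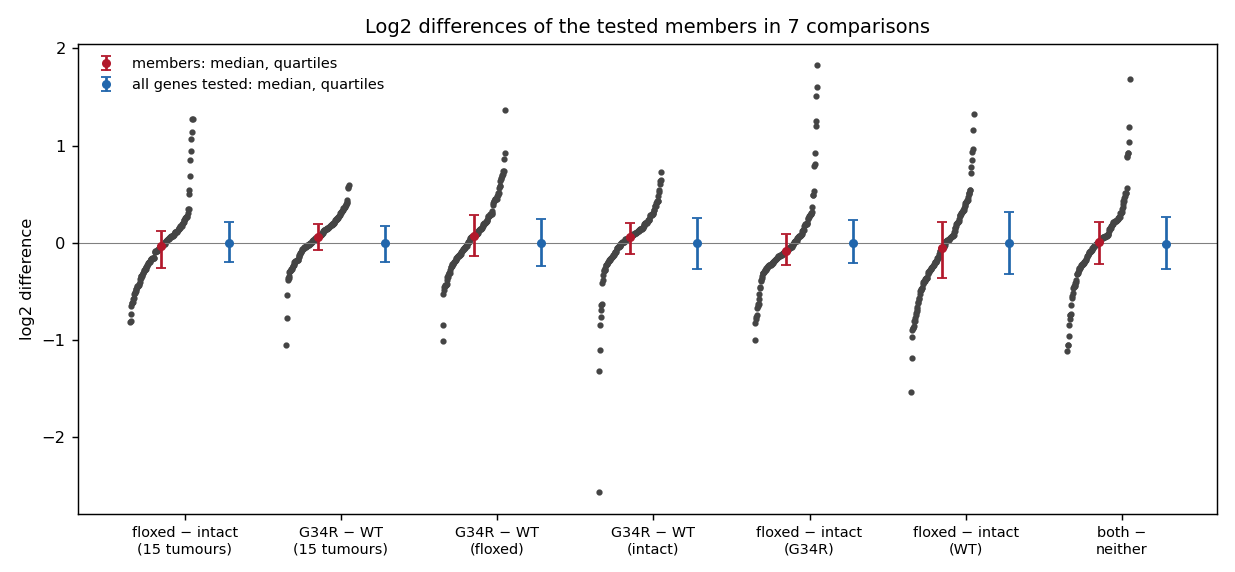
Log2 differences of the tested members (grey points, sorted) in 7 comparisons, with the median and quartiles of the members (red) and of all genes tested (blue). The members' medians lie between -0.08 and 0.07, within the quartiles of all genes in each comparison.

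In the authors' deposited tables, 1 member passed an adjusted p of 0.05. This was Zfp976 in Atrx floxed against intact with H3.3G34R, where the authors' deposited table gives a log2 fold change of 1.54, a standard error of 0.42 and an adjusted p of 0.0451, among 145 members and 20987 genes with an adjusted p (0.538% of genes passed). The other 4 deposited tables by the authors have 0 members past 0.05, with 0.182% of genes passing for the histone with Atrx floxed, 0.0578% for the histone with Atrx intact, 0.352% for Atrx with H3.3WT and 0.38% for both changes against neither. The next member in the authors' deposited table for Atrx with H3.3G34R was Zfp937, at a log2 fold change of 1.92 and an adjusted p of 0.135.

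Zfp976 is a KRAB zinc finger gene with 18 fingers at chromosome 7, 42609526 to 42642588 on the minus strand, whose promoter is printed above. Its levels were 154, 176, 262 and 238 normalised reads in the Atrx-floxed H3.3G34R tumours and 103, 110, 136 and 141 in the Atrx-floxed H3.3WT tumours. In the Atrx-intact tumours they were 96.6, 37.2 and 79.9 with H3.3G34R and 225, 6.38, 62.4 and 153 with H3.3WT. The floxed and intact H3.3G34R tumours did not overlap, while the Atrx-intact H3.3WT tumours spread widely, from the lowest value of all 15 tumours to 225. With H3.3G34R the log2 difference for Atrx was 1.60 (SE 0.42, 95% interval 0.64 to 2.56), and the limma adjusted p was 0.9999. DESeq2 on the genes filtered here gave an adjusted p of 0.0528, the lowest over the alternatives, so the call in the deposited table was not repeated by any of them. Without Atrx-intact H3.3G34R replicate 2 the log2 difference was 1.20. Over both histones the difference was 1.27 (SE 0.58) in limma, with an adjusted p of 0.997, and it ran from 0.76 without Atrx-intact H3.3WT replicate 2 to 1.76 with Xist as a covariate (adjusted p 0.469 to 0.9997 over 26 alternatives). The neighbours Zfp977 and Zfp975, with similar promoters, had log2 differences of 0.85 (SE 0.53) and 0.51 for Atrx over both histones, neither called. Zfp976 and Zfp975 were lowest of all tumours in Atrx-intact H3.3WT replicate 2, at 6.38 and 5.32 normalised reads, and Zfp977 was second lowest there, at 4.25. Zfp976 shared 6.85% and Zfp975 shared 10.9% of 100-base transcript words with other genes, so part of their reads may be assigned uncertainly, and Zfp977 shared 0%.

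Of the other members with the smallest p for Atrx over both histones, 5 were higher in floxed tumours. Zfp618, which has 4 fingers and is known to bind UHRF2, a reader of hydroxymethylated DNA, lies at chromosome 4, 62965573 to 63139708. It had 857, 1261, 734 and 363 normalised reads in Atrx-floxed H3.3G34R tumours, 737, 862, 894 and 759 in Atrx-floxed H3.3WT, 180, 702 and 571 in Atrx-intact H3.3G34R and 575, 264, 155 and 453 in Atrx-intact H3.3WT tumours. The H3.3WT tumours did not overlap by Atrx status, and the H3.3G34R tumours did. Its log2 difference over both histones was 1.07 (SE 0.36, 95% interval 0.30 to 1.84), with a limma adjusted p of 0.790. Zfp937 on chromosome 2, at 55.4, 38.6, 88.9 and 30.1 normalised reads in Atrx-floxed H3.3G34R tumours, had 18.7, 6.92 and 16.9 in the Atrx-intact tumours with the same histone, which did not overlap with them. In the H3.3WT tumours it had 47.9, 54.9, 56.6 and 71.9 with Atrx floxed and 8.68, 56.3, 65.0 and 40.5 with Atrx intact, which overlapped. Its difference over both histones was 1.28 on the log2 scale (SE 0.43) with a limma adjusted p of 0.795. Zfp937 shared 10.9% of 100-base transcript words with other genes, so part of its reads may be assigned uncertainly. Zfp787 was higher by 0.34 (SE 0.14), Zfp977 by 0.85 and Zfp768 by 0.25 (SE 0.16), all uncalled values.

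The 6 members with the smallest p in the other direction were Zfp868, Zfp950, Zfp846, Zfp994, Zfp763 and Zfp712. Zfp868 on chromosome 8 (69610857 to 69625548) had 428, 326, 371 and 359 normalised reads in Atrx-floxed H3.3G34R tumours and 311, 327, 392 and 400 in Atrx-floxed H3.3WT tumours. It had 450, 804 and 780 in Atrx-intact H3.3G34R and 1412, 240, 490 and 873 in Atrx-intact H3.3WT tumours. All floxed tumours thus lay in a narrow range, and 6 of 7 intact tumours lay above it, with Atrx-intact H3.3WT replicate 2 below. The log2 difference was -0.81 (SE 0.31, 95% interval -1.47 to -0.15), with a limma adjusted p of 0.930. The differences were -0.61 (SE 0.24) for Zfp950, -0.50 (SE 0.21) for Zfp846, -0.62 (SE 0.26) for Zfp994, -0.43 (SE 0.20) for Zfp763 and -0.57 (SE 0.27) for Zfp712, with limma adjusted p-values of 0.946 to 0.997. Of these 6, Zfp846, Zfp994, Zfp763 and Zfp712 carry KRAB letters of the searched pattern, which does not show that the others lack a KRAB box.

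**Figure D3:**
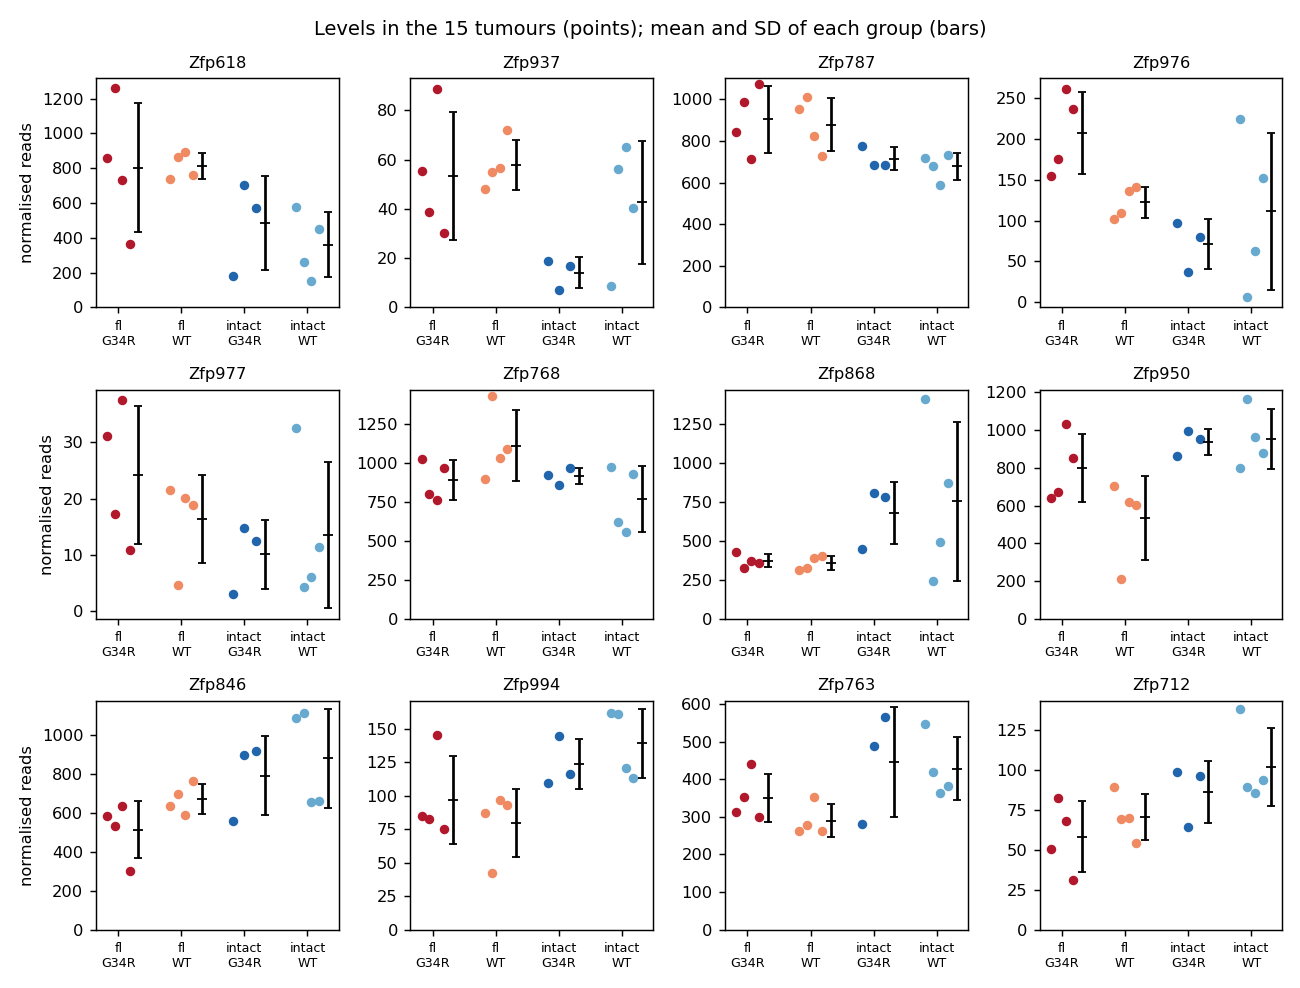
Normalised reads of the 12 members with the smallest p for Atrx status, 6 higher and 6 lower in floxed tumours; points are tumours, colour is the group, and bars are the mean and SD. The floxed and intact tumours overlap for each of the 12 members.

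Groups that do not overlap were counted next, since they need no model. Over both histones 0 members separated the 8 floxed from the 7 intact tumours (0.135% of genes did), and 0 separated the 7 H3.3G34R from the 8 H3.3WT tumours (0.0113% of genes). With Atrx floxed, 4 of 140 members separated the histones (2.16% of genes), with Zfp976, Zfp623 and Zfp758 higher and Zfp688 lower in H3.3G34R. With Atrx intact, 3 of 139 did so (2.61% of genes), with Zfp954 higher and Zfp941 and Zfp612 lower in H3.3G34R. Atrx status separated 8 members with H3.3G34R (4.64% of genes, 3 higher and 5 lower in floxed) and 5 with H3.3WT (2.65% of genes), among which Zfp618 was higher and Zfp612, Zfp994, Zfp763 and Zfp950 lower. Both changes against neither separated 4 members (2.94% of genes), with Zfp612, Zfp846, Zfp653 and Zfp712 all lower. Zfp954 and Zfp653 are named outside the naming rule, after their values were seen. These shares lie close to those of all genes.

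Zfp612, a KRAB gene with 16 fingers on chromosome 8 (110079746 to 110092741), appeared in 3 of these counts, which all use the same Atrx-intact H3.3WT tumours. It had 1121, 1012, 1080 and 994 normalised reads in those tumours, against 865, 381 and 831 in Atrx-intact H3.3G34R, 679, 377, 725 and 558 in Atrx-floxed H3.3WT and 715, 621, 857 and 401 in Atrx-floxed H3.3G34R tumours. The Atrx-intact H3.3WT tumours were above the other 11. The limma difference was -0.89 (SE 0.26, adjusted p = 0.975) for Atrx with H3.3WT and -0.69 (SE 0.33) for the histone with Atrx intact, and neither was called. For the histone over all tumours the smallest p was that of Zfp623 on chromosome 15 (75940952 to 75949400), with a log2 difference of 0.36 (SE 0.16, limma adjusted p = 0.9999). It had 814, 938, 714 and 862 normalised reads in Atrx-floxed H3.3G34R and 538, 598, 632 and 674 in Atrx-floxed H3.3WT tumours, which did not overlap. With Atrx intact it had 673, 633 and 731 with H3.3G34R and 627, 613, 356 and 718 with H3.3WT, which overlapped. Zfp688, a KRAB gene with 2 fingers, had the smallest interaction p (log2 value -0.83, SE 0.37, limma adjusted p = 0.9996). It was lower in H3.3G34R than in H3.3WT tumours with Atrx floxed, at 267 ± 15.9 (SD, n = 4) against 394 ± 92.7 (SD, n = 4) normalised reads, and stood at 331 ± 47.6 (SD, n = 3) against 272 ± 53.2 (SD, n = 4) with Atrx intact.

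The remaining members named for the histone had small differences that were not called. Those higher in H3.3G34R over all tumours were Zfp677 (log2 difference 0.59), Zfp758 (0.57), Zfp948 (0.39), Zfp719 (0.36) and Zfp622 (0.31). Those lower were Zfp937 (-0.77), Zfp846 (-0.29), Zfp956 (-0.27), Zfp651 (-0.26), Zfp646 (-0.20) and Zfp710 (-0.19). Zfp956 overlaps Zfp783 and Zfp646 overlaps Zfp668, so their reads may not be told apart. Zfp758, a KRAB gene with 12 fingers on chromosome 17, had 74.8, 81.3, 107 and 111 normalised reads in Atrx-floxed H3.3G34R and 45.9, 63.1, 47.9 and 38.8 in Atrx-floxed H3.3WT tumours. These did not overlap, while with Atrx intact the H3.3G34R tumours (134, 72.7 and 96.7) lay within the range of the H3.3WT tumours (128, 157, 62.4 and 40.5).

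By chromosome, the tested members differed in the direction of the Atrx difference. On chromosome 13 all 8 tested members were lower in floxed tumours, at a median log2 difference of -0.35 against -0.11 for all tested genes of that chromosome. On chromosome 17 it was 17 of 21 (median -0.20 against -0.05), and on chromosome 8 it was 12 of 16 (median -0.22 against -0.06). On chromosome 15 all 7 tested members were higher (median 0.18 against 0.10), and on chromosome 7 it was 23 of 34 (median 0.07 against -0.00850). On the remaining chromosomes with at least 5 tested members, both directions occurred. All tested genes of these chromosomes leaned the same way, with 34.8% of genes higher in floxed tumours on chromosome 13, 42.7% on chromosome 17, 41.2% on chromosome 8 and 63.4% on chromosome 15, except on chromosome 7, where 48.6% were higher. No member on any chromosome was called.

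The directions were also counted within each histone. The difference over both histones averages these 2 differences, and the chromosomes were picked by it. Agreement between the counts is therefore partly built in and is no separate evidence. On chromosome 13, 7 of 8 members were lower in floxed tumours with H3.3G34R (median -0.30) and 8 of 8 with H3.3WT (median -0.47). On chromosome 17 it was 14 of 21 (median -0.11) and 18 of 21 (median -0.30), and on chromosome 8 it was 14 of 16 (median -0.22) and 11 of 16 (median -0.26). On chromosome 15, 5 of 7 were higher with H3.3G34R and 6 of 7 with H3.3WT. On chromosome 7 the members were split with H3.3G34R, 16 higher and 17 lower, and 20 of 34 were higher with H3.3WT. Over all chromosomes, 86 of 138 members had the same sign in both, and 55.1% of all genes did. Without the 2 tumours richest in neuron markers, the members lower in floxed tumours were 8 of 8 on chromosome 13, 20 of 21 on chromosome 17 and 13 of 16 on chromosome 8, and those higher were 5 of 7 on chromosome 15 and 20 of 34 on chromosome 7. Members of a cluster share sequence and neighbourhood and are not independent, so these counts are descriptions without a test.

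**Figure D4:**
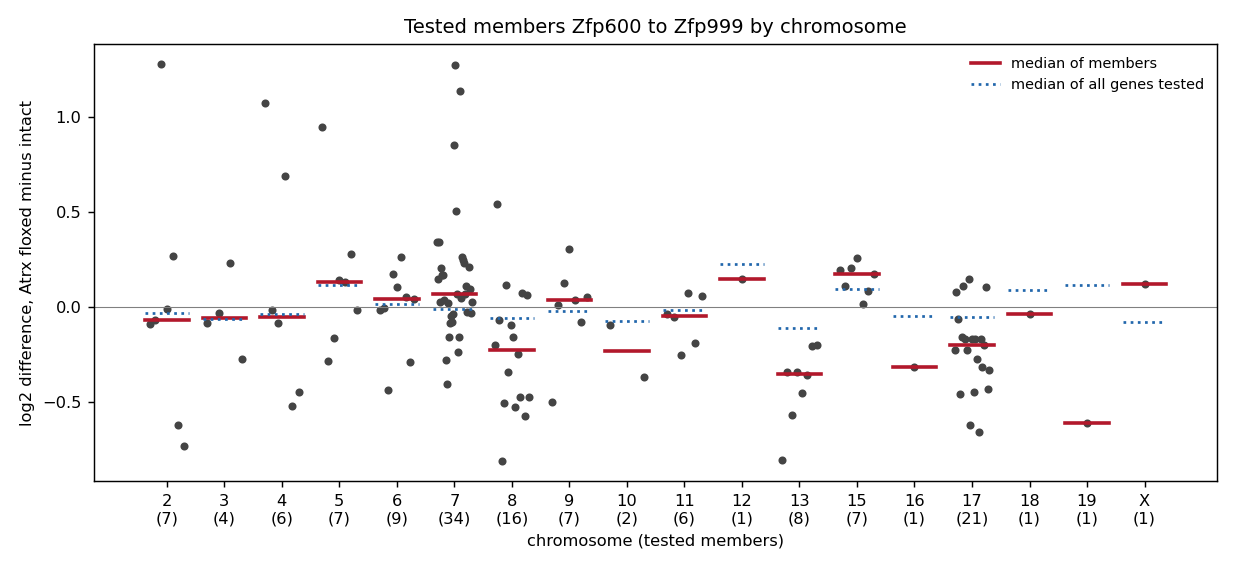
Log2 difference between Atrx-floxed and Atrx-intact tumours for each tested member (points, in order of position within a chromosome), with the median of the members (red line) and of all genes tested on the chromosome (dotted blue line). All 8 points of chromosome 13 lie below 0 and all 7 of chromosome 15 above it.

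The cluster on chromosome 13 from Zfp640 to Zfp738 (66669928 to 67687071) held 5 tested members of 7, and these were lower by 0.20 to 0.57 on the log2 scale in floxed tumours. The summed level of its members was 1018 ± 198 normalised reads (SD, n = 4) in Atrx-floxed H3.3G34R, 1051 ± 270 (SD, n = 4) in Atrx-floxed H3.3WT, 1292 ± 225 (SD, n = 3) in Atrx-intact H3.3G34R and 1272 ± 280 (SD, n = 4) in Atrx-intact H3.3WT tumours. Floxed tumours ran from 744 to 1399 and intact ones from 1027 to 1666, so they overlapped. The chromosome 4 cluster, of which 4 of 17 members were tested, summed to 508 ± 22.7 (SD, n = 4), 392 ± 97.3 (SD, n = 4), 551 ± 55.6 (SD, n = 3) and 599 ± 108 (SD, n = 4) normalised reads in the same order of groups. Its first member Zfp990 had 2 reads in all, and its last member Zfp933 carried most of the sum. The chromosome 17 cluster from Zfp677 to Zfp945 had all 14 members tested, 11 of them lower in floxed tumours, with sums of 3287 ± 807 (SD, n = 4), 2528 ± 216 (SD, n = 4), 3309 ± 381 (SD, n = 3) and 3254 ± 873 (SD, n = 4). The lowest of the 4 means was that of Atrx-floxed H3.3WT. The cluster on chromosome 7 that opens with Zfp977 and ends with Zfp819 had 5 of 7 tested members higher in floxed tumours (median 0.51), and the one from Zfp771 to Zfp646 had 7 of 9 higher (median 0.11). In the chromosome 8 cluster from Zfp930 to Zfp866, which contains Zfp868, 5 of 6 members were lower. With Atrx floxed, 20 of the 21 tested members of chromosome 17 were higher in H3.3G34R than in H3.3WT tumours (median 0.28), and with Atrx intact 14 of 21 were (median 0.02). Over both Atrx states the members' median was 0.13, against 0.06 for all tested genes of chromosome 17. The share of all its genes within each Atrx state was not computed, and these counts were not repeated with tumours left out.

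The number of fingers went with the direction in the same descriptive way. Of 80 tested members with 10 or more fingers, 55 were lower in floxed tumours (median log2 difference -0.15), and of 55 with 1 to 9 fingers, 21 were (median 0.06). With 1 tumour left out, 49 to 60 of the 80 were lower, and the median ran from -0.22 without Atrx-intact H3.3WT replicate 3 to -0.05 without replicate 1 of that group. Without the 2 tumours richest in neuron markers, 59 of the 80 with many fingers were lower, and of those with few fingers 28 of 54, at a median of -0.02, so the direction of the latter did not hold. Of 68 members with KRAB letters 44 were lower, and of 69 coding members without them 32 were. With 1 tumour left out, 39 to 51 of the 68 were lower, and their median, -0.09 with all tumours, ran from -0.19 to -0.04 without the same replicates 3 and 1. The genes Zfp1 to Zfp599, chosen by number alone, were lower in 119 of 189 cases (median -0.08). By limma 7 of them had an unadjusted p under 0.05 (3.70%, against 4.87% of all genes), and none was called (0.0956% of all genes were). The 22 tested Zkscan and Zscan genes were lower in 14 cases. A median per tumour shows how far these shifts vary within a group: relative to each member's mean, the median tested member stood at 0.09, 0.06, 0.13 and -0.24 (log2) in Atrx-floxed H3.3G34R tumours, -0.06, -0.12, 0.02 and 0.08 in Atrx-floxed H3.3WT, -0.06, 0.16 and 0.15 in Atrx-intact H3.3G34R and 0.34, -0.02, -0.31 and 0.04 in Atrx-intact H3.3WT tumours. The floxed and intact tumours overlapped, and both the highest and the lowest tumour were Atrx-intact H3.3WT. All tested genes had medians of -0.01 to 0.02. The part that cell mixture has in these shifts was not tested, and the lowest tumour was the neuron-rich replicate 3. Without it and Atrx-floxed H3.3G34R replicate 3, 89 of 138 members were lower in floxed tumours (median -0.11), with 50.9% of all genes higher.

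**Figure D5:**
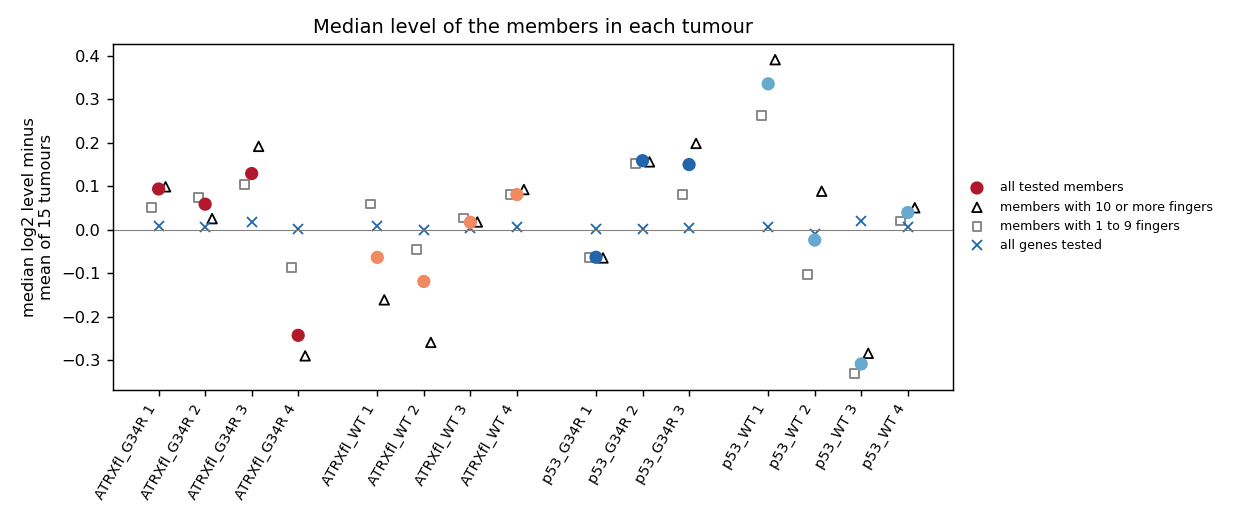
Median log2 level of the 139 tested members in each tumour, relative to each member's mean over 15 tumours (filled points, coloured by group; ATRXfl on the axis marks floxed and p53 marks intact Atrx), with members of 10 or more fingers (triangles), of 1 to 9 fingers (squares) and all genes tested (crosses). Members range from -0.31 in Atrx-intact H3.3WT replicate 3 to 0.34 in replicate 1 of the same group.

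Which of the 4 groups had the highest mean also varied. Of 139 tested members, 51 (36.7%) were highest in Atrx-intact H3.3G34R tumours, where 21.1% of all tested genes were, 33 (23.7%) in Atrx-intact H3.3WT (34.7% of all genes), 29 (20.9%) in Atrx-floxed H3.3WT (27.9%) and 26 (18.7%) in Atrx-floxed H3.3G34R (16.3%). The lowest mean was in Atrx-floxed H3.3WT for 55 members, and the share of all genes lowest there was not computed.

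The 3 members with the widest spread were Zfp831, Zfp951 and Zfp819. Zfp831, on chromosome 2 (174643534 to 174710832), had 1388 normalised reads in Atrx-intact H3.3WT replicate 3 and 192 in Atrx-floxed H3.3G34R replicate 3, and between 0 and 39.1 in the other 13 tumours. The 2 high tumours are those with the most mature neuron markers, 153507 and 10243 normalised reads over 8 genes. They also had the most mature oligodendrocyte and astrocyte markers, and the part of that mixture in the level was not tested. Zfp831 passed the filter on the mean through these tumours. Zfp951 on chromosome 5 ranged from 6.21 to 417 and Zfp819 on chromosome 7 from 0 to 66.6 normalised reads, both with the highest value in Atrx-floxed H3.3WT replicate 2. At the other end, Zfp706, a small protein known to promote exit from self-renewal in embryonic stem cells, had an SD of 0.176 in log2 level, and Zfp639 had 0.183.

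Several members with a known function were looked at apart from the naming rule. Zfp827, which recruits the NuRD complex to telomeres in cells that maintain them by recombination, a state associated with ATRX loss, stood at 2854 ± 856 (SD, n = 4), 2846 ± 321 (SD, n = 4), 2671 ± 656 (SD, n = 3) and 2755 ± 661 (SD, n = 4) normalised reads in Atrx-floxed H3.3G34R, Atrx-floxed H3.3WT, Atrx-intact H3.3G34R and Atrx-intact H3.3WT tumours. Its log2 difference for Atrx had a 95% interval from -0.34 to 0.49. Zfp809, a KRAB protein that silences murine leukaemia virus, had an interval from -0.47 to 0.73, and Zfp644, a partner of the H3K9 methyltransferases G9a and GLP, one from -0.73 to 0.16. Zfp746 (PARIS), a repressor of PGC-1α, had an interval from -0.13 to 0.67. Each of the 4 intervals includes 0 and stays within 2-fold.

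The proteins through which KRAB members act, and those that form or read H3K9 methylation and H3.3, were listed for comparison. Of 21 listed genes, all tested, limma called 1 for Atrx status over both histones (0.0956% of all genes were). This was Atrx itself, the gene that the design targets. Of the 21, 15 were lower, Atrx among them, and 6 higher, at a median log2 difference of -0.08. Of all genes 49.6% were higher. The list includes Trim28, the KRAB co-repressor, with a difference of 0.12 (SE 0.18), Setdb1, its H3K9 methyltransferase, with -0.27 (SE 0.21), and Daxx, the H3.3 chaperone that partners Atrx, with 0.04 (SE 0.15). Fam208a, a subunit of the HUSH silencing complex, had -0.53 (SE 0.25, limma adjusted p = 0.997). For the histone over both Atrx states 0 of 21 were called by limma (0% of all genes), and 0 had an unadjusted p under 0.05 (2.15% of all genes).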

How the data were processed

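RNA of 15 tumours was made into TruSeq mRNA libraries, as the labels' protocols state. The submitters' processing notes name STAR 2.7, HTSeq, DESeq2 and the mm10 build; the annotation, the strand setting and the handling of multiply matching reads were not given there. The deposited tables, 1 for each of 5 pairs of groups, hold per library a signal, which is the authors' read count over a size factor. Per the file headers they also hold the signal's mean, the log2 fold change and its standard error, the p-value with its adjusted form, and a Wald score. All values were whole multiples of the value of 1 read (100% within 0.01), so reads were recovered by division, and rescaled together by the median of ratios for values per tumour and for fits over 15 libraries. Identifiers were matched to GENCODE vM21 (99.9%).

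Because the values are normalised, the main test was limma 3.58.1 (trend, robust; R 4.3.3) on log2(value + 1) on genes whose mean reached 10, within the pair's own table or over 15 libraries, with Benjamini-Hochberg adjustment over all genes. The pseudocount understates changes of low genes. The procedure was also run on simulated data, and how many known changes it recovered is not reported here. Alternatives were DESeq2 1.42.0, edgeR 4.0.16 and limma-voom on recovered reads, other filters, pseudocounts and scaling, log2 Xist as covariate, summed libraries that share a title code, and left-out libraries. Labels do not say that libraries of a group come from separate mice, and some libraries of a group share the first code of their titles, so p-values measure the spread between these samples; 2 libraries of a group never agreed within sampling noise (chi-square per degree of freedom at least 89.8).

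Members and lists were chosen with earlier results of these data known. Named are members called or past the authors' threshold, the 6 per direction with the smallest p for Atrx and for the histone over 15 tumours, 2 per direction for the pairs and the interaction, the 3 with the highest level per exon length and the 3 with the largest spread, and the ends of clusters; exceptions are stated.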

Additional observations from a re-analysis of the deposited data

Results flagged for a closer look

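In each group of 4 tumours, the highest or lowest tumour was compared with its group for the 47 named members, and 15 of 136 member and group pairs had a tumour whose gap to the nearest other took most of the group's range (over 0.829 of it). Chance alone gives about 1 in 20 for normal values, but these read values gave 11.9% over all genes tested (6323 of 53272) and 8.39% over all tested members (35 of 417). The 3 members named for their spread supply 5 of the 15. Atrx-floxed H3.3G34R replicate 3 stood high for Zfp831 (192 normalised reads, others 0 to 16.9), Zfp677 (131, others 73.5 to 81.6) and Zfp994 (145, others 74.8 to 84.5), and for Zfp990 (0.987, which is 1 read, others 0). Atrx-floxed H3.3WT replicate 2 stood high for Zfp777 (3466, others 1228 to 1411), Zfp819 (66.6, others 3.91 to 6.63) and Zfp951 (417, others 73.2 to 104) and low for Zfp977 (4.67, others 18.9 to 21.5). Atrx-intact H3.3WT replicate 3 stood high for Zfp831 (1388, others 1.06 to 16.3), and replicate 1 of that group for Zfp712 (138, others 85.5 to 93.4) and Zfp945 (742, others 370 to 404). Atrx-floxed H3.3G34R replicate 4 stood low for Zfp738 (333, others 455 to 479) and Zfp746 (1085, others 1529 to 1568), and replicate 1 stood high for Zfp651 (4079, others 2745 to 2913). Zfp831 was also high in Atrx-floxed H3.3WT replicate 1 (39.1, others 4.67 to 6.97).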

How the results depend on the processing

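The count of 0 called members held in all 8 comparisons under all 176 alternative fits. These include DESeq2, edgeR, limma-voom, other filters, pseudocounts and scalings, the Xist covariate, summed libraries, a joint fit for the pairs and each library left out in turn. The genes called over the whole table moved, from 10 to 25 for Atrx over both histones when 1 library was left out. The left-out fits called 0 genes for the interaction and for the histone, over both Atrx states or within either. They called 0 to 5 genes for Atrx with H3.3G34R, and 2 to 8 each for Atrx with H3.3WT and for both changes against neither. With so few genes called in all, 0 members was close to fixed in these fits and says little about the members. The log2 differences of named members, 48 in all, were named for small p-values in these same libraries. A kept sign is therefore largely fixed by that choice and does not make an uncalled difference firm. All kept their sign in each of 1116 recomputed values, and 5 moved by more than their standard error. These were Zfp719 for the histone (0.36 to 0.13 under limma-voom), Zfp777 and Zfp612 for the histone with Atrx intact (0.64 to 0.16 without Atrx-intact H3.3G34R replicate 1, and -0.69 to -0.31 without its replicate 2), Zfp868 for Atrx with H3.3G34R (-0.83 to -1.11 without Atrx-intact H3.3G34R replicate 1) and Zfp950 for Atrx with H3.3WT (-0.97 to -0.57 without Atrx-floxed H3.3WT replicate 2); the cause was not tested. The Atrx difference was -1.51 on the log2 scale and ran from -1.58 to -1.40 with 1 library left out. The directions by chromosome and by fingers were recomputed in alternatives chosen after seeing the data. With 1 library left out, members higher in floxed tumours numbered 0 on chromosome 13 each time, 5 to 7 of 7 on chromosome 15, 2 to 5 on chromosome 17, 2 to 6 on chromosome 8, 18 to 26 on chromosome 7 and 45 to 70 over all members, whose median ran from -0.10 to 0.00362. Of members with 1 to 9 fingers, 23 to 39 of 55 were higher, and 26 of 54 without the 2 tumours richest in neuron markers, so that their direction did not hold. Groups of 3 or 4 leave wide intervals: with H3.3WT alone, 51 of 139 members had an interval for Atrx within 2-fold. No paired analysis was possible because the labels number no replicates.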
